A study of Rattus norvegicus with 16 samples.

Results

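The genes of catecholamine synthesis, transport and breakdown were followed in sorted cells of the rat carotid body, the small organ at the carotid fork that senses blood oxygen.
They were taken by name as Th, Ddc, Dbh, Slc18a1, Slc18a2, Slc6a2, Slc6a3, Maoa and Maob, and all 9 of 9 were measured, each by 1 probe that names a single gene, among 18166 such genes on the array.
The carotid bodies came from Wistar rats of 9 to 11 weeks and were mixed from both sides, and the dispersed cells were sorted with an antibody to HNK-1, a sugar epitope of neural adhesion molecules.
Cells that carried the epitope are labelled neuroblasts, immature cells of the organ, and cells that lacked it are labelled glomus cells, the oxygen sensors.
The 4 groups of 4 arrays were glomus cells and neuroblasts of rats kept in ambient air (normoxia), and glomus cells and neuroblasts of rats kept for 3 days in a hypoxic chamber, whose oxygen level the labels do not give.
The labels name no transgene or drug, 500 pg of total RNA was labelled per array, and the labels give neither the animals per sample nor whether replicates are different animals. A p-value therefore measures the spread between these samples, which may be technical.

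Catecholamines are made from tyrosine in a chain of enzymes. Th (tyrosine hydroxylase) makes L-DOPA and is the rate-limiting step, Ddc turns L-DOPA into dopamine, and Dbh turns dopamine into noradrenaline inside the vesicle. The vesicular transporters Slc18a1 (VMAT1) and Slc18a2 (VMAT2) load the amines into granules, Slc6a2 (NET) and Slc6a3 (DAT) take released noradrenaline and dopamine back up, and the monoamine oxidases Maoa and Maob degrade them on the outer mitochondrial membrane. Glomus cells of the rat are known mainly as dopamine cells, and sympathetic neurons and adrenal chromaffin cells as cells that go on to noradrenaline.

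The promoter windows listed for 3 of these genes are shown. The reason is that Th and Dbh, the enzymes at the start and the end of the chain, gave different patterns across the 4 groups. Slc18a2 was picked because its window shares a motif with that of Th. Each run is the 250 bases before the start site used by the promoter listing on the GRCr8 assembly, 5′ to 3′ on the gene's strand. That site is not the RefSeq gene start for these 3 genes. Capitals mark matches on either strand to TGACGTCA (the full cAMP response element), its 5-letter part TGACG, or ATTA, the core of many homeodomain sites. A full TGACGTCA always holds TGACG on both strands, and the Dbh match CGTCATTA joins a TGACG match and an ATTA match that share 1 base.
Th: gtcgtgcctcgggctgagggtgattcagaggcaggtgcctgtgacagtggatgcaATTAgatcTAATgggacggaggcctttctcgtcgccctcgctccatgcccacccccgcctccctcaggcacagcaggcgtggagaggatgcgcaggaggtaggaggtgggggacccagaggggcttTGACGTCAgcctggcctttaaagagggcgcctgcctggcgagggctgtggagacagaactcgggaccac
Dbh: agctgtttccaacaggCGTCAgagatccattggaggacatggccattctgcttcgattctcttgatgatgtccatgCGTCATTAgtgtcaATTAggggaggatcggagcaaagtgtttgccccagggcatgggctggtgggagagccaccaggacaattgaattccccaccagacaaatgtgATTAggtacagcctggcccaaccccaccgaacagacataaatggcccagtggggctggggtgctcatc
Slc18a2: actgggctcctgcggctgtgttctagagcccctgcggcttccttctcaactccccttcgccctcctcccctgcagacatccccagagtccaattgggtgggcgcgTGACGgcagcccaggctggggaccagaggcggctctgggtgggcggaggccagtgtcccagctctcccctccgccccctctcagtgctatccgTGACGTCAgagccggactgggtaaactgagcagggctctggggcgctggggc
The windows lie at chr1:207508219-207508468 on the minus strand for Th, at chr3:30886078-30886327 on the plus strand for Dbh and at chr1:268399771-268400020 on the plus strand for Slc18a2. The RefSeq gene itself starts at 207508276 for Th, 30886313 for Dbh and 268399815 for Slc18a2. Each window thus runs past that start into the gene, and most of the Slc18a2 window lies inside it. TGACGTCA begins 69 bases before the listed start of Th and 52 bases before that of Slc18a2. The Slc18a2 match lies after the RefSeq gene start, inside the gene. Of all 33469 listed promoter windows of this length 1.59% hold TGACGTCA. Of the 9 windows listed for 7 of the 9 genes, 2 hold it. Slc18a2 was picked for this match, so its share with Th is fixed by that choice. The Dbh window holds TGACG at 234 and 174 bases and ATTA at 170, 160 and 68 bases before the listed start, motifs held by 18.2% and 57.0% of all windows. ACGTG, a form of the hypoxia response element core, is held by 16.6% of all windows. It has no match in the 9 windows listed for 7 of the 9 genes, which says only that these letters are not in them. The other form of the core, GCGTG, was not searched for or counted, and the Th and Slc18a2 windows printed here hold it. A match is a description of the sequence and no evidence of binding.

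Values are the authors' log2 expression values, so a difference of 1 is a 2-fold change, and levels of different probes are not set against each other. Differences are given with the standard error of limma, a linear model fitted to all 30429 probes, and a gene passed at a Benjamini-Hochberg adjusted p under 0.05 over all probes. The medians of the 8 normoxic arrays lay at 4.42 to 4.64 for glomus cells and 4.40 to 4.61 for neuroblasts, and those of the 8 hypoxic arrays at 4.71 to 4.74 and 4.71 to 4.94. The median difference of all probes was 0.17 with hypoxia in glomus cells and 0.25 in neuroblasts, so hypoxia differences are also given after each array was centred on its median ("centred"). Replicate 1 of the hypoxic neuroblasts was unlike its 3 group mates (mean correlation across probes 0.914, against 0.949 to 0.982 within groups for the other 15 arrays). Its SD over probes was 1.78, against 1.99 to 2.23 for the other 15 arrays. For many but not all results that involve this array, values without it are also given. No label gives a processing batch, so a batch and a group cannot be told apart. The mean of 11 glomus cell markers outside the 9 genes was 9.80 to 10.01 in normoxic glomus cells and 8.78 to 9.29 in normoxic neuroblasts. That of 14 neuroblast markers was 7.05 to 7.31 and 7.90 to 8.42, so each population was higher in its own list. The second list holds B3gat1, an enzyme that makes HNK-1, and the lists were chosen with earlier results of these data known. The lists are thus no independent check of the sort. In hypoxia the ranges were 9.08 to 9.17 and 8.30 to 8.99 for the first list and 7.01 to 7.19 and 7.17 to 7.61 for the second, which overlap. Between the normoxic populations 5 of the 11 passed, lower in neuroblasts, and 7 of the 14, higher, where 1.82% of all probes passed. Between the hypoxic populations limma passed 0 of the 11 and 0 of the 14 (5 and 3 at an unadjusted p under 0.05), where 0.283% of all probes passed. These are bulk samples, in which fewer cells of a type and less RNA per cell cannot be told apart.

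**Figure D1:**
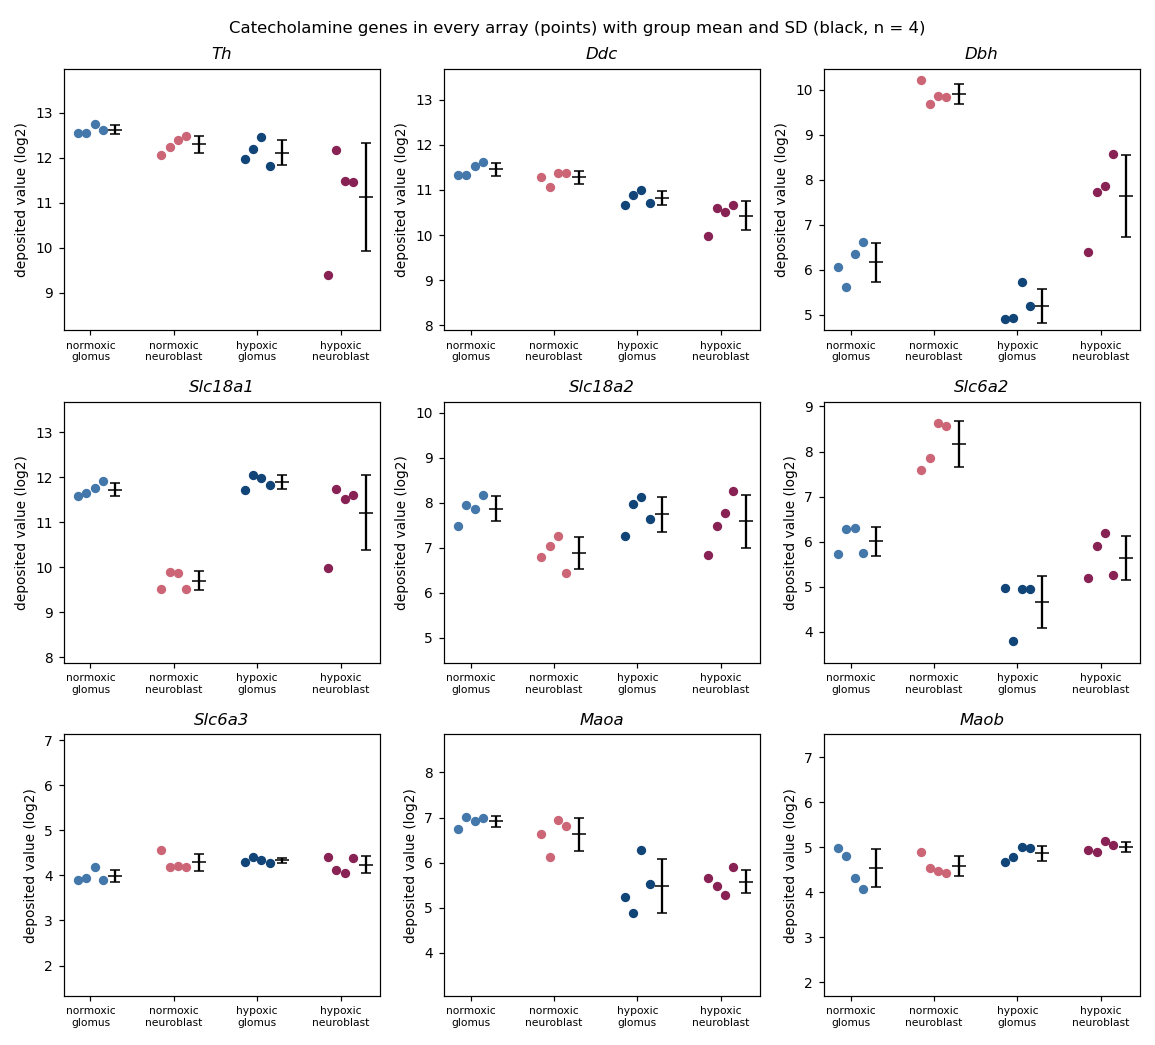
Deposited log2 values (y axis) of the 9 genes in the 4 groups (x axis), with 1 point per array and the group mean ± SD in black; every panel spans the same range of log2 units. Dbh and Slc6a2 are highest in the 4 normoxic neuroblast arrays, Slc18a1 is lowest in 5 arrays (those 4 and hypoxic neuroblast replicate 1), and that replicate is also the lowest point for Th.

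In normoxia the sorted neuroblasts differed from glomus cells in the last enzyme of the chain, in granule loading and in noradrenaline uptake. Of the 9 genes 3 passed, Dbh and Slc6a2 higher and Slc18a1 lower in neuroblasts, where 1.82% of all probes passed, 0.996% higher and 0.828% lower. Th and Ddc, the first 2 enzymes, did not pass. The median difference of the 9 genes was -0.18, against -0.01 over all probes.

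Dbh was at 6.06, 5.62, 6.35 and 6.63 in normoxic glomus cells and at 10.22, 9.69, 9.87 and 9.84 in normoxic neuroblasts. All 4 neuroblast arrays lay more than 3 log2 units above the highest glomus array. The difference was 3.74 ± 0.34, or 13.4-fold (adjusted p = 9.34e-06). Slc6a2, the transporter that returns noradrenaline to the cell, was at 5.72, 6.28, 6.30 and 5.74 in glomus cells and at 7.60, 7.85, 8.63 and 8.57 in neuroblasts. The groups did not overlap, as for 7.39% of all probes, and the difference was 2.15 ± 0.31, or 4.45-fold (adjusted p = 0.0006). Slc18a1, the vesicular transporter of endocrine-type granules, ran the other way, with 11.59, 11.64, 11.76 and 11.91 in glomus cells and 9.51, 9.90, 9.88 and 9.52 in neuroblasts. It was 4.06-fold lower in neuroblasts (-2.02 ± 0.29, adjusted p = 0.000478), again with no overlap. Each of these 3 calls held without any 1 of the 16 arrays.

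The second vesicular transporter, Slc18a2, was at 7.49, 7.94, 7.86 and 8.18 in normoxic glomus cells and at 6.79, 7.04, 7.25 and 6.44 in normoxic neuroblasts. The groups did not overlap, yet the difference of -0.99 ± 0.28 did not pass (adjusted p = 0.0888). It passed after quantile normalization (adjusted p = 0.0376), without hypoxic neuroblast replicate 1 (adjusted p = 0.0296) and with the replicate number as a block (adjusted p = 0.0444). It did not pass after centring (limma adjusted p = 0.166). The call was reached in 5 of 25 alternatives, and in 1 of the 16 fits that left out 1 array.

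Th was at 12.56, 12.56, 12.76 and 12.62 in normoxic glomus cells and at 12.06, 12.23, 12.40 and 12.49 in normoxic neuroblasts. Every neuroblast array was lower, but by little: the difference was -0.33 ± 0.39, with a 95% interval of -1.15 to 0.49 (adjusted p = 0.972). Ddc was at 11.33 to 11.62 in glomus cells and at 11.07 to 11.38 in neuroblasts, a difference of -0.18 ± 0.17 (95% interval -0.53 to 0.18, adjusted p = 0.94). Neither of the first 2 enzymes passed. The error of Th is pooled over the 4 groups, among them hypoxic neuroblasts with an SD of 1.20. The SD was 0.09 in normoxic glomus cells and 0.19 in normoxic neuroblasts, and these arrays did not overlap, as for 7.39% of all probes. Without hypoxic neuroblast replicate 1 the Th difference was again -0.33 (limma adjusted p = 0.553). Maoa differed by -0.29 ± 0.25 (adjusted p = 0.914) and Maob by 0.04 ± 0.19 (adjusted p = 0.999). Slc6a3, the dopamine transporter, lay at 3.89 to 4.18 in glomus cells and 4.18 to 4.57 in neuroblasts, a difference of 0.31 ± 0.15 (adjusted p = 0.558). Its probe was below the median of the array in 16 of 16 arrays and that of Maob in 5 of 16, while those of Th, Ddc, Dbh, Slc18a1, Slc18a2 and Maoa were above it in all, and that of Slc6a2 in all but 1. The table gives no detection call, so no statement is made on whether the 2 dim genes are expressed.

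Markers of other cells moved with the sort. Of 12 peripheral and sympathetic neuron markers, 2 were higher in normoxic neuroblasts, Nefl (1.63 ± 0.26) and the ganglionic nicotinic receptor gene Chrna3 (1.67 ± 0.30), and 1 was lower, Ngfr (-1.23 ± 0.23). Without hypoxic neuroblast replicate 1, 4 were higher and 1 lower. Their mean level per array was 7.50 to 7.68 in glomus cells and 7.89 to 8.18 in neuroblasts. Of 14 macrophage markers 6 were lower in neuroblasts (mean level 4.86 to 6.54 in glomus cells, 4.07 to 4.51 in neuroblasts). Of 9 endothelial markers 1 passed, Cldn5, a tight junction gene (8.39 ± 0.27 in glomus cells, 4.74 ± 0.55 in neuroblasts). By limma 8 of the 9 had an unadjusted p under 0.05, and the median difference of the list was -0.955. The endothelial mean level was 4.94 to 6.43 in glomus cells and 4.08 to 4.58 in neuroblasts. Of 10 mast cell markers, cells that also carry Slc18a2, limma passed 0 (0 at an unadjusted p under 0.05), and their mean level was 3.25 to 3.61 in all 8 normoxic arrays. Of 10 type II and glial markers 2 were higher in neuroblasts, Gpm6b (2.03 ± 0.38) and Sostdc1 (1.53 ± 0.24), and the list's mean level was 4.66 to 5.24 in glomus cells and 5.45 to 5.91 in neuroblasts. Of 5 adrenal chromaffin markers the granin genes Chga (-1.26 ± 0.24) and Scg2 (-0.62 ± 0.14) were lower in neuroblasts, with a list mean of 8.63 to 8.92 and 8.01 to 8.31. Normoxic neuroblast replicate 2 stood out in the 10 fibroblast markers, with a list mean of 8.57, Dcn at 10.43 and Lum at 9.16, and the calls on Dbh, Slc6a2 and Slc18a1 held without it. No marker of any list is at 0 in the table. The part of these cells in the results on Dbh, Slc6a2 and Slc18a1 was not tested.

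After 3 days of hypoxia 1 of the 9 genes passed between the populations, where 0.283% of all probes did, 0.138% higher and 0.145% lower in neuroblasts. Dbh was at 4.92, 4.94, 5.74 and 5.19 in the hypoxic glomus arrays and at 6.40, 7.72, 7.86 and 8.57 in the hypoxic neuroblast arrays. The groups did not overlap, as for 4.48% of all probes, and Dbh was 5.43-fold higher in neuroblasts (2.44 ± 0.34, adjusted p = 0.00348). Without hypoxic neuroblast replicate 1, the lowest of the 4, the difference was 2.85 (adjusted p = 0.000254). Fitted on these 8 arrays alone it did not pass (adjusted p = 0.0655). The medians of the hypoxic glomus arrays were 4.71 to 4.74. Without a detection call, the glomus values of Dbh there are not shown to be above background, so the fold is uncertain.

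Slc6a2 was at 4.96, 3.79, 4.95 and 4.94 in glomus cells and at 5.19, 5.91, 6.19 and 5.26 in neuroblasts. The neuroblast arrays were all higher, by 0.98 ± 0.31, which did not pass (adjusted p = 0.254). The glomus values of Slc6a2 lay near the medians of those arrays, 4.71 to 4.74, and are likewise not shown to be above background. Slc18a1 was at 11.72, 12.05, 11.99 and 11.82 in glomus cells and at 9.98, 11.74, 11.52 and 11.61 in neuroblasts. Apart from replicate 1, the neuroblast arrays reached into the range of the glomus arrays or lay just below it. The difference was -0.68 ± 0.29 (adjusted p = 0.397), and -0.27 without replicate 1 (adjusted p = 0.738). Th was at 11.98, 12.20, 12.45 and 11.81 in glomus cells and at 9.40, 12.17, 11.48 and 11.46 in neuroblasts. The value of 9.40 in replicate 1 is the lowest of the 16, and the difference of -0.98 ± 0.39 (adjusted p = 0.368) was -0.41 without it (adjusted p = 0.631). Ddc differed by -0.39 ± 0.17 (adjusted p = 0.413), Slc18a2 by -0.16 ± 0.28, Slc6a3 by -0.10 ± 0.15, Maoa by 0.10 ± 0.25 and Maob by 0.14 ± 0.19, none of which passed. The median of the 9 genes was -0.10, against 0.04 over all probes. By limma 0 of the 12 peripheral neuron markers passed between the hypoxic populations (5 at an unadjusted p under 0.05), whose mean levels were 7.56 to 7.78 in glomus cells and 7.24 to 8.20 in neuroblasts. Of 14 macrophage markers 7 were lower in neuroblasts. Of 10 type II and glial markers 1 was higher in neuroblasts, and 7 had an unadjusted limma p under 0.05. The glial mean level was 5.23 to 5.53 in hypoxic glomus cells and 5.83 to 6.36 in hypoxic neuroblasts. The part of these cells was not tested.

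**Figure D2:**
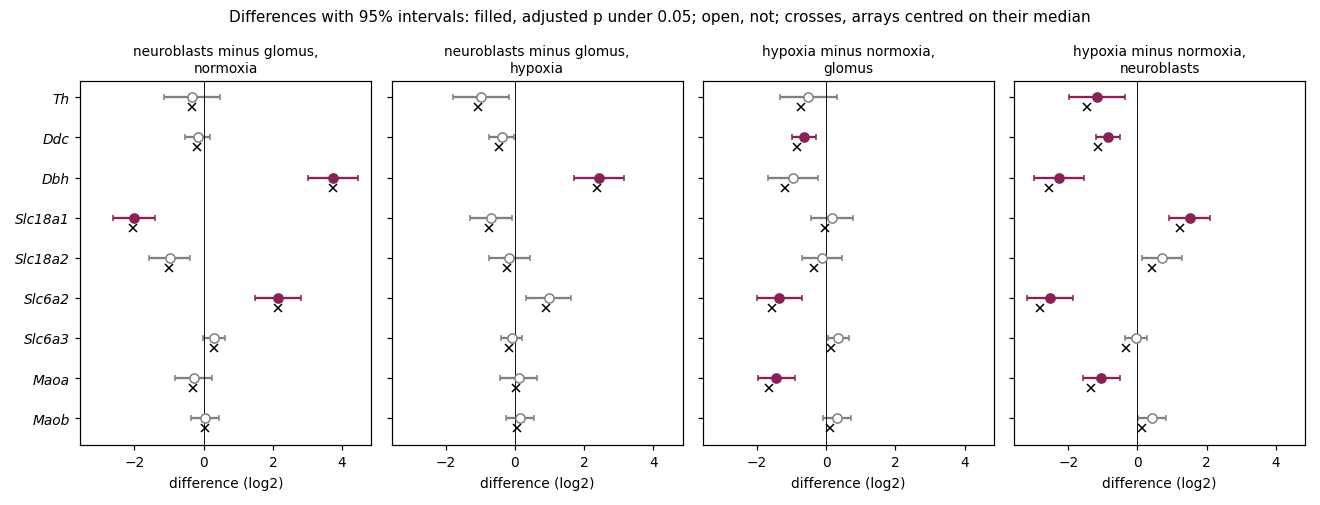
Differences in log2 units (x axis) for the 9 genes (y axis) in the 4 comparisons, as circles with 95% intervals from limma; filled circles passed at an adjusted p under 0.05, and crosses give the difference after each array was centred on its median. Dbh lies at 3.74 in normoxia and 2.44 in hypoxia between the populations, and Slc18a1 is the 1 filled circle to the right of 0 with hypoxia in neuroblasts.

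In glomus cells, hypoxia lowered Ddc, Slc6a2 and Maoa, 3 of the 9 genes, and raised none, where 18.9% of all probes passed, 9.37% higher and 9.5% lower. After centring 1370 probes were higher and 3783 lower, against 2852 and 2892 before, and 4 of the 9 genes passed, all lower. Maoa, the oxidase that prefers noradrenaline and serotonin, was at 6.74, 7.02, 6.93 and 6.98 in normoxia and at 5.23, 4.87, 6.27 and 5.53 in hypoxia. All 4 hypoxic arrays lay below the normoxic ones, and 26.4% of all probes had no overlap in one direction or the other. Maoa fell by 1.44 ± 0.25, or 2.72-fold (adjusted p = 0.000701, centred -1.66). Slc6a2 fell by 1.35 ± 0.31, or 2.55-fold (adjusted p = 0.0053, centred -1.56), also without overlap. Its hypoxic values, 4.96, 3.79, 4.95 and 4.94, lay near the array medians of 4.71 to 4.74. They are not shown to be above background, so the size of this fall is uncertain. Ddc was at 11.34, 11.33, 11.54 and 11.62 in normoxia and at 10.67, 10.89, 11.00 and 10.72 in hypoxia. It fell by 0.64 ± 0.17, or 1.56-fold (adjusted p = 0.0132, centred -0.85). Each of these 3 calls held without any 1 array.

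Dbh, already low in glomus cells, differed by -0.97 ± 0.34 and did not pass (adjusted p = 0.0595). It passed after centring (-1.18, adjusted p = 0.0385), after quantile normalization (adjusted p = 0.0447) and with the replicate block (adjusted p = 0.042). The call was reached in 11 of 25 alternatives, among them 4 of the 16 fits that left out 1 array. Th differed by -0.52 ± 0.39 (95% interval -1.33 to 0.30, adjusted p = 0.38), although the 4 hypoxic arrays lay below the 4 normoxic ones, and it passed when only these 8 arrays were fitted (adjusted p = 0.0424). Slc18a1 differed by 0.17 ± 0.29 (centred -0.045, adjusted p = 0.707) and Slc18a2 by -0.12 ± 0.28 (adjusted p = 0.78). Slc6a3 differed by 0.35 ± 0.15 (centred 0.14) and Maob by 0.32 ± 0.19 (centred 0.10), and neither passed. The median of the 9 genes was -0.52 (centred -0.73), against 0.17 over all probes. Of the 14 macrophage markers 4 were higher in hypoxic glomus cells (mean level 5.77 to 6.40), and so was Pf4, 1 of 6 platelet markers (3.30 ± 0.58). Their part in the falls was not tested.

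In neuroblasts, hypoxia changed 6 of the 9 genes, 5 lower and 1 higher, where 32.1% of all probes passed, 13.7% lower and 18.4% higher. That background split depends on the scaling: 5596 probes were higher and 4159 lower as deposited, 1826 and 5464 after centring and 3278 and 3701 after quantile normalization. After centring again 5 of the 9 genes were lower and 1 higher. Slc6a2, at 7.60 to 8.63 in normoxia, was at 5.19 to 6.19 after hypoxia. It fell by 2.52 ± 0.31, or 5.76-fold (adjusted p = 1.55e-05, centred -2.81), and without hypoxic replicate 1 by 2.38. Dbh, at 9.69 to 10.22 in normoxia, was at 6.40 to 8.57 after hypoxia and fell by 2.27 ± 0.34, or 4.81-fold (adjusted p = 0.000108, centred -2.55), and without replicate 1 by 1.85. For both genes no array of one condition overlapped the other, as for 28% of all probes. Hypoxic neuroblasts thus held Dbh between the levels of normoxic neuroblasts and those of normoxic glomus cells, with replicate 1 at 6.40 inside the glomus range of 5.62 to 6.63. Their Slc6a2 values overlapped those of normoxic glomus cells, 5.72 to 6.30.

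Slc18a1 was the 1 gene that rose. It went from 9.51 to 9.90 in normoxia to 9.98, 11.74, 11.52 and 11.61 in hypoxia, a rise of 1.51 ± 0.29, or 2.85-fold (adjusted p = 0.000751, centred 1.23). Without replicate 1, which lay just above the normoxic arrays, the rise was 1.92 (adjusted p = 7.87e-07). Slc18a2 went from 6.79, 7.04, 7.25 and 6.44 to 6.83, 7.48, 7.78 and 8.25. The arrays overlapped and the difference of 0.70 ± 0.28 did not pass (adjusted p = 0.0582, centred 0.42). It passed without replicate 1 (0.96, adjusted p = 0.00968), after quantile normalization (0.99, adjusted p = 0.00324) and with the replicate block (adjusted p = 0.0321). It did not pass after centring (limma adjusted p = 0.374). The call was reached in 5 of 25 alternatives, and in 1 of the 16 fits that left out 1 array.

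Maoa went from 6.63, 6.12, 6.94 and 6.82 to 5.66, 5.48, 5.28 and 5.90. It fell by 1.05 ± 0.25, or 2.07-fold (adjusted p = 0.00488, centred -1.33), with no overlap. Ddc went from 11.29, 11.07, 11.38 and 11.38 to 9.97, 10.59, 10.51 and 10.66, a fall of 0.85 ± 0.17, or 1.8-fold (adjusted p = 0.00118, centred -1.13). The Ddc difference without hypoxic replicate 1 was -0.69. Th fell by 1.17 ± 0.39 (adjusted p = 0.03, centred -1.45), and without hypoxic replicate 1, at 9.40, by 0.59 (adjusted p = 0.0359). That call did not hold without normoxic neuroblast replicate 3 (adjusted p = 0.0653) or replicate 4 (adjusted p = 0.0698), or in a fit of these 8 arrays alone (adjusted p = 0.106). Slc6a3 differed by -0.05 ± 0.15 and Maob, at 4.89 to 5.14 in hypoxia, by 0.42 ± 0.19 (centred 0.14), and neither passed. The median of the 9 genes was -0.85 (centred -1.13), against 0.25 over all probes. Of the 12 peripheral neuron markers 3 rose and 6 fell with hypoxia in neuroblasts, with Nefl (-0.84 ± 0.26) and Chrna3 (-0.94 ± 0.30) among the falls. Npy was among the rises, with a group mean of 7.30 in normoxic and 9.975 in hypoxic neuroblasts. Of 14 neuroblast markers 2 rose and 10 fell. Without hypoxic neuroblast replicate 1, 3 of the peripheral neuron markers rose and 4 fell. Their part in the falls of Dbh and Slc6a2 was not tested.

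Whether hypoxia acted differently in the 2 populations was tested as an interaction: the hypoxia difference of glomus cells was subtracted from that of neuroblasts. By limma 0 of the 9 genes passed, where 0.0789% of all probes did (0.0263% higher, 0.0526% lower), and 4 of the 9, Dbh, Slc18a1, Slc18a2 and Slc6a2, had an unadjusted p under 0.05. The value for Slc18a1 was 1.34 ± 0.40 (adjusted p = 0.415). It passed in 2 of 24 alternatives: without hypoxic neuroblast replicate 1 (1.75, adjusted p = 0.0024) and with array weights, which give such an array less influence (1.69, adjusted p = 0.0111). The values for Dbh (-1.30 ± 0.49, adjusted p = 0.631) and Slc6a2 (-1.18 ± 0.44, adjusted p = 0.629) did not pass under any of the alternatives run. Those for Th (-0.65 ± 0.55), Ddc (-0.21 ± 0.24) and Maoa (0.40 ± 0.36) were within 2 standard errors of 0. With hypoxic neuroblast replicate 1 left out, the values were -0.89 for Dbh, -1.03 for Slc6a2, -0.08 for Th and -0.06 for Ddc. The Dbh and Slc6a2 values draw on the hypoxic glomus arrays, where these probes are not shown to be above background.

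The order of the 4 groups differed between genes. For Dbh it ran from hypoxic glomus cells (5.20 ± 0.38, SD, n = 4) through normoxic glomus cells (6.17 ± 0.43) and hypoxic neuroblasts (7.64 ± 0.91) to normoxic neuroblasts (9.90 ± 0.22), and only the first 2 pairs of neighbours overlapped. For Slc6a2 it ran from hypoxic glomus cells (4.66 ± 0.58) through hypoxic neuroblasts (5.64 ± 0.49) and normoxic glomus cells (6.01 ± 0.32) to normoxic neuroblasts (8.16 ± 0.52), with overlap between the middle 2. For Slc18a1 normoxic neuroblasts were lowest (9.70 ± 0.22), apart from all others, and hypoxic neuroblasts (11.21 ± 0.83), normoxic glomus cells (11.72 ± 0.14) and hypoxic glomus cells (11.89 ± 0.15) followed with overlap between neighbours. For Maoa the 2 hypoxic groups (5.47 ± 0.59 in glomus cells, 5.58 ± 0.26 in neuroblasts) overlapped each other, as did the 2 normoxic groups (6.63 ± 0.36 in neuroblasts, 6.92 ± 0.12 in glomus cells). The highest hypoxic glomus array, 6.27, lay above the lowest normoxic neuroblast array, 6.12. Th ran from hypoxic neuroblasts (11.13 ± 1.20) through hypoxic glomus cells (12.11 ± 0.28) and normoxic neuroblasts (12.30 ± 0.19) to normoxic glomus cells (12.62 ± 0.09), and all neighbours but the last pair overlapped.

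Centring an array shifts all its probes alike and leaves the difference between 2 of them as it was, so 4 pairs of genes were also compared within arrays. Quantile normalization can still change such a difference. The pairs were the last and the first enzyme, the 2 vesicular transporters, the 2 uptake transporters and the 2 oxidases. Across 4 pairs and 4 comparisons, 11 of 16 passed an exact two-sided permutation test of 4 against 4 arrays after Benjamini-Hochberg adjustment, all at p = 0.0286, the smallest that test can give (adjusted p = 0.0416). That p says only that the 2 groups did not overlap. Single probes did not overlap in 7.39% (normoxia) and 4.48% (hypoxia) between populations, and in 26.4% (glomus cells) and 28% (neuroblasts) with hypoxia. The share over all pairs of probes was not computed. The count uses the same values as the single-gene results and is no separate support for them. Dbh relative to Th was 4.07 higher in neuroblasts in normoxia and 3.42 higher in hypoxia, and hypoxia lowered it in neuroblasts by 1.10 (all 4 arrays), while the change of -0.45 in glomus cells had an exact permutation p of 0.143. Slc18a1 relative to Slc18a2 was 1.03 lower in normoxic neuroblasts than in normoxic glomus cells and went up by 0.81 with hypoxia in neuroblasts. After quantile normalization the second of these was 0.47 and did not pass (adjusted exact permutation p = 0.176). The other passing comparisons involve Slc6a3 or Maob, the 2 dim probes, which are not shown to be above background, and the sizes of those differences are not given.

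**Figure D3:**
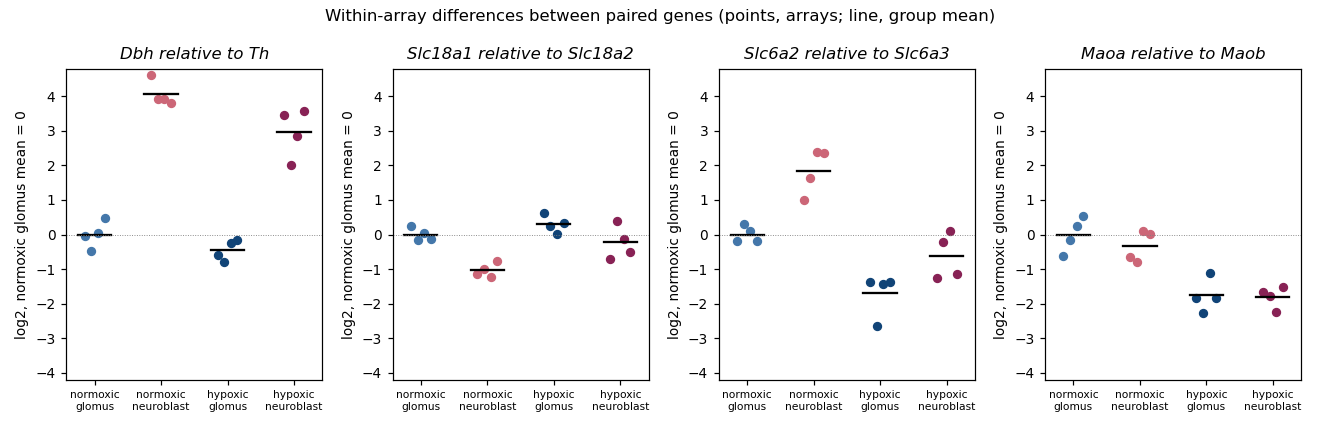
Within-array differences (y axis, log2, with the normoxic glomus mean set to 0) for 4 pairs of genes in the 4 groups (x axis); points are arrays and lines group means. Dbh relative to Th is about 4 units higher in normoxic neuroblasts; Slc6a3 and Maob are dim probes, and nothing is read from the size of the differences against them.

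The other genes that feed or clear the pathway were described from 5 lists of 66 genes, of which 58 had a single-gene probe. Between the populations 2 of the 58 passed in normoxia, where 1.82% of all probes did. Slc31a1, which imports the copper that Dbh needs, was lower in neuroblasts (9.34 ± 0.46 against 10.42 ± 0.18, adjusted p = 0.00919), opposite in direction to Dbh. Slc29a4 (PMAT), a plasma membrane monoamine transporter, was higher (9.44 ± 0.47 against 7.46 ± 0.44, a difference of 1.97 ± 0.36, adjusted p = 0.00508). In hypoxia 1 passed, Aldh1a1, an aldehyde dehydrogenase known in dopamine neurons (1.85 ± 0.32, adjusted p = 0.0162), and 0 passed without hypoxic glomus replicate 3 or without hypoxic neuroblast replicate 2.

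With hypoxia 23 of the 58 passed in glomus cells, 8 higher and 15 lower, and 27 in neuroblasts, 9 higher and 18 lower, beside 18.9% and 32.1% of all probes. After centring 3 were higher and 18 lower in glomus cells, and 4 higher and 21 lower in neuroblasts. In glomus cells the count was 15 without normoxic glomus replicate 3 and 15 without normoxic glomus replicate 4. Of the 10 measured genes of synthesis and supply 6 fell and 0 rose in each population. Cyb561, which carries electrons into the vesicle for Dbh, fell by 2.03 ± 0.23 in glomus cells (adjusted p = 2.02e-05) and by 1.80 ± 0.23 in neuroblasts (adjusted p = 1.79e-05). The amino acid transporter gene Slc7a8 fell by 0.95 ± 0.23 in glomus cells and by 1.32 ± 0.23 in neuroblasts, the aromatic amino acid transporter gene Slc16a10 fell by 1.05 ± 0.26 and by 1.00 ± 0.26, and Atp7a, the copper pump of the secretory pathway, fell by 1.46 ± 0.23 in neuroblasts. The neuroblast differences without hypoxic neuroblast replicate 1 were -1.77 for Cyb561, -1.04 for Slc7a8, -0.84 for Slc16a10 and -1.54 for Atp7a.

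Of 12 measured genes that bear on Th activity 3 rose and 3 fell in each population. Gch1, the first enzyme of tetrahydrobiopterin synthesis, the cofactor of Th, rose by 2.18 ± 0.27 in glomus cells (adjusted p = 4.48e-05) and by 2.29 ± 0.27 in neuroblasts (adjusted p = 1.01e-05). Spr, the last enzyme of that synthesis, rose by 0.94 ± 0.17 and 1.18 ± 0.17. Prkaca, the catalytic subunit of protein kinase A, which phosphorylates Th, fell by 1.59 ± 0.35 in glomus cells and fell by 2.06 ± 0.35 in neuroblasts. The neuroblast differences without hypoxic neuroblast replicate 1 were -1.59 for Prkaca, 2.45 for Gch1 and 1.27 for Spr. Gch1 and Spr thus rose in both populations, where Th fell in neuroblasts and its difference of -0.52 in glomus cells did not pass.

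Of 17 subunit genes of the proton pump that powers vesicular loading, 1 rose and 4 fell in glomus cells and 1 rose and 5 fell in neuroblasts. The subunit genes Atp6v1a (-1.80 ± 0.29 and -1.75 ± 0.29), Atp6ap1 (-1.65 ± 0.26 and -2.07 ± 0.26) and Atp6v1b2 (-1.33 ± 0.24 and -1.27 ± 0.24) fell in glomus cells and neuroblasts, and Atp6v1g1 rose (1.04 ± 0.20 and 1.15 ± 0.20). Without hypoxic neuroblast replicate 1, 5 of the 17 rose in neuroblasts. The neuroblast differences were then -1.43 for Atp6v1a, -1.85 for Atp6ap1, -1.01 for Atp6v1b2 and 1.33 for Atp6v1g1. Of 13 genes listed under other clearance and breakdown 3 rose and 1 fell in glomus cells, and 3 rose and 3 fell in neuroblasts. After centring 0 rose in glomus cells and 1 in neuroblasts. Slc29a4 fell in neuroblasts by 2.62 ± 0.36 (adjusted p = 4.25e-05). Slc18b1, of the same gene family as the vesicular transporters, fell by 2.10 ± 0.35 in glomus cells and fell by 1.46 ± 0.35 in neuroblasts. Aldh1a1 rose by 2.75 ± 0.32 in neuroblasts (adjusted p = 9.78e-06). Of 6 genes of the indoleamine branch, Slc6a4, the serotonin transporter gene, fell in both populations (-1.34 ± 0.26 and -1.19 ± 0.26), and Tph1 rose in glomus cells (0.80 ± 0.27), a difference that did not pass after centring (adjusted p = 0.2) and passed without 1 array in 6 of 16 cases. In the interaction limma passed 0 of the 58 (5 at an unadjusted p under 0.05).

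**Figure D4:**
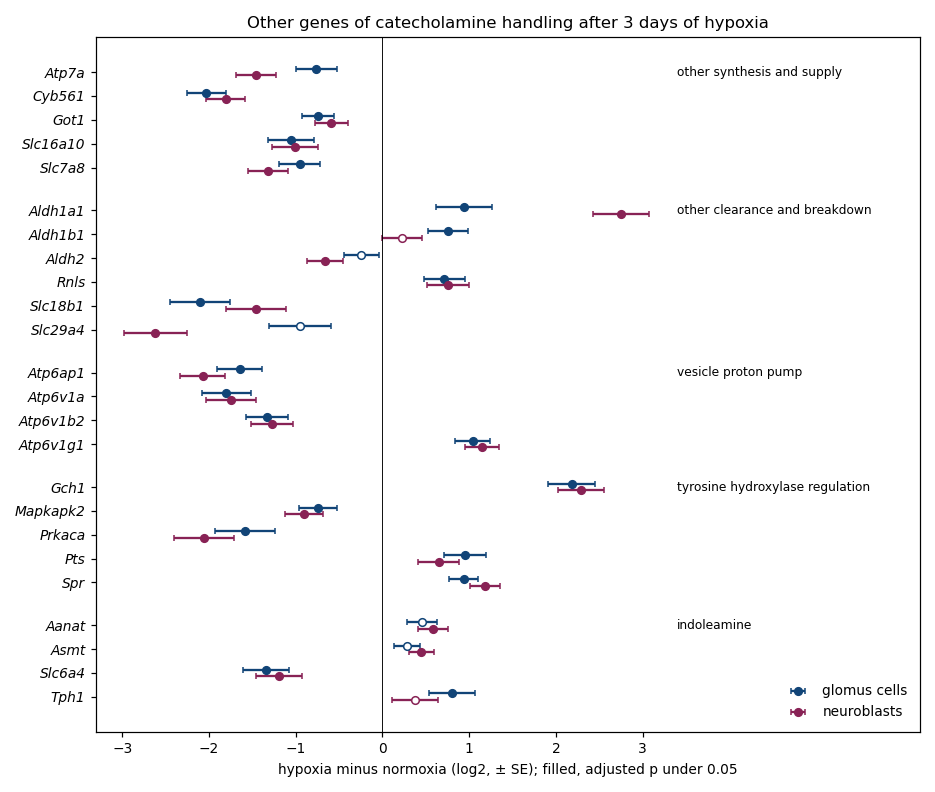
Hypoxia differences (x axis, log2 ± SE) in glomus cells and neuroblasts for the other pathway genes named by rule (y axis, by list); filled points passed at an adjusted p under 0.05. Gch1 lies near 2 in both populations, Cyb561 near -2 in both, and Slc29a4 and Aldh1a1 are farther from 0 in neuroblasts, a difference that did not pass as an interaction.

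The genes whose profiles lay closest to 4 of the catecholamine genes were found by the mean absolute distance between profiles, each centred on its own mean over the 16 arrays. The search covered 18062 other genes whose symbol does not begin with LOC, RGD or MGC. Closest to Dbh were Rbfox1 (distance 0.47), Mgat4c (0.51) and Sidt1 (0.57), where the Dbh profile itself deviates by 1.65 from its mean. Closest to Slc18a1 (own deviation 0.86) were Slc35d3 (0.19), Ret (0.24) and 6330403K07Rikl (0.32). Slc35d3 had mean levels of 7.13 and 7.42 in glomus cells in normoxia and hypoxia, and of 5.45 and 7.07 in neuroblasts. Closest to Slc6a2 (own deviation 1.07) were Npy1r (0.32), Tmem35a (0.34) and Slc10a4 (0.40). For these 3 genes the same neighbours held the first 3 ranks without hypoxic neuroblast replicate 1. Closest to Th (own deviation 0.51) were Dctn3 (0.15), Ctsa (0.17) and Defb40 (0.18), which held ranks 10, 36 and 29 without that array. All arrays share the 4 groups, so these distances are descriptions only.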

How the data were processed

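Biotinylated cDNA from 16 samples was hybridised to an Affymetrix rat array. The authors' deposited log2 values were used as given; per the submitters' processing notes they were made with Transcriptome Analysis Console, and no source used here gives its version, background correction or normalization. The log2 base was inferred from their range (0.87 to 13.33), since the deposited table does not state it. Arrays carry no read depth, and 4 per group limit the precision. Probes were named from the platform annotation, 1 probe per gene (the brightest over 16 arrays). One mean per group was fitted to all 30429 probes, with no filter, in limma 3.58.1 (R 4.3.3, lmFit and eBayes, 12 residual degrees of freedom), and tests were two-sided. The script was tested on simulated data. Within-array differences used exact permutation tests (SciPy 1.17.1). From the other pathway lists up to 4 genes that passed per list and comparison, those with the smallest p, were named. Marker genes given as examples (up to 3 per list and comparison) were chosen after their values were seen. The genes, lists and tests were chosen with earlier results of these data known. Replicate numbers are shared between groups, but same-numbered arrays deviated together (r over 0.1) in only 8 of 24 pairs, so they were not treated as paired. Alternatives were other scalings, filters on dim probes, variance models, array weights, a replicate block, smaller fits, probe averaging and leaving out each array.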

Additional observations from a re-analysis of the deposited data

Results flagged for a closer look

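Among the 36 sets of 4 values (9 genes in 4 groups), 3 held an array far from the other 3 by Dixon's criterion, which chance alone meets in about 1 of 20 sets. Slc18a1 was at 9.98 in hypoxic neuroblast replicate 1 and at 11.52 to 11.74 in the other 3, and that array also had the lowest correlation with its group. Slc6a2 was at 3.79 in hypoxic glomus replicate 2 and at 4.94 to 4.96 in the others. Slc6a3 was at 4.57 in normoxic neuroblast replicate 1 and at 4.18 to 4.22 in the others.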

How the results depend on the processing

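Across the alternatives run, calls on the 9 genes changed most for genes near the threshold. The number of genes that passed between hypoxic populations was 0 and with hypoxia in glomus cells 5 when only the arrays compared were fitted, and 1 passed in the interaction with array weights. Leaving out 1 array in turn gave 3 to 4 genes between normoxic populations, 1 to 1 between hypoxic ones, 3 to 4 for hypoxia in glomus cells, 5 to 7 in neuroblasts and 0 to 1 in the interaction. For the 58 other pathway genes these ranges were 2 to 2, 0 to 1, 15 to 26, 21 to 31 and 0 to 0. Of the 16 within-array comparisons 0 passed without any 1 array, since 3 arrays against 4 allow no p as small, and the joint adjustment then also raises the adjusted p of the comparisons that kept 4 against 4 (0.0653 for Dbh relative to Th between normoxic populations without hypoxic glomus replicate 1). With quantile normalization 10 of 16 passed. Signs reversed for differences near 0. Under other processing these were Slc18a1 with hypoxia in glomus cells (-0.045 centred), Slc18a2 between hypoxic populations (0.065 with array weights), Slc18a2 with hypoxia in glomus cells (0.038 with quantile normalization) and Maoa relative to Maob between hypoxic populations (0.065 with quantile normalization). Leaving out 1 array in turn gave both signs for Slc18a2 between hypoxic populations (-0.38 to 0.094) and with hypoxia in glomus cells (-0.25 to 0.039), and for Slc6a3 with hypoxia in neuroblasts (-0.11 to 0.044). The same held for Maoa between hypoxic populations (-0.097 to 0.37), Maob between normoxic populations (-0.12 to 0.19), the Maob interaction (-0.048 to 0.26) and Maoa relative to Maob between hypoxic populations (-0.21 to 0.18). The cause was not tested. With the replicate block 4 genes passed between normoxic populations and 4 and 7 with hypoxia in glomus cells and neuroblasts; it ended no call on the 9 genes but ended those of Aldh1a1 (adjusted p = 0.0564) and Tph1 (adjusted p = 0.0577) with hypoxia in glomus cells, and same-numbered arrays correlated best with their own number in 7 of 24 cases. Averaging the probes of a gene left the 9 genes as they were, since each has 1 probe.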
